A study of Homo sapiens with 4 samples.

Results

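The genes described here encode the working parts of the lysosome: its proton pump, its acid hydrolases, the proteins of its membrane and the receptors that bring enzymes to it. They were chosen by name, as every gene symbol that starts with ATP6V or ATP6AP, every cathepsin (CTS and 1 letter) and 30 further lysosomal genes, and all their listed cytidine positions were taken from both deposited tables. This gave 93 positions in 36 genes, of 17862 positions in 6112 genes in all. The genes were chosen with earlier results of these data known, so no share below is an independent check of that choice. The rule covers 69 coding genes of the RefSeq table, of which 33 had no listed position in either table.

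The cells were LX-2, an established human line of hepatic stellate cells, the liver cells that become collagen-producing myofibroblasts, and all had the genotype given as WT. The groups were 2 libraries of cells given human recombinant TGF-β1 at 5 ng/ml for 24 h and 2 libraries of untreated cells, which are called control here. RNA with poly(A) tails was selected, and sodium borohydride (NaBH4) was used, which reduces N4-acetylcytidine (ac4C) to a base that reverse transcriptase can misread. The study asked how ac4C differed after TGF-β1. Each group had 1 table with 1 value per cytidine position, a difference of mismatch fractions that is called the mismatch difference and given in percent, and 1 p-value of the authors. No library without NaBH4 or without NAT10, the ac4C writer, was used here, so the listed mismatches at C were not tied here to ac4C itself. With 1 value per group there is no spread between the replicates and no test of any difference below. Depth is unknown, so no value of a single position has an interval, and Wilson intervals of shares cover counting error only.

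The lysosome breaks down proteins, glycans and lipids at acid pH. The V-ATPase pumps protons into it: the V1 sector in the cytosol hydrolyses ATP and the V0 sector in the membrane carries the protons. Most hydrolases are tagged with mannose 6-phosphate in the Golgi and carried onward by the receptors M6PR and IGF2R, and the transcription factor TFEB raises many of these genes together. In stellate cells autophagy delivers lipid droplets to lysosomes during activation, and secreted cathepsins can cleave matrix.

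The tables were first checked against sequence. The end coordinate of 334 of the listed positions lay in a RefSeq promoter window (250 bases before to 50 after a gene's start, GRCh38.p14), and the base there on the transcript strand was C at 334 of 334. The end coordinate is therefore printed as the position on hg38. Of the listed cytidines 232 lay between the start site and the end of such a window. A G followed 62.1% of them, against 35.3% of the 3301 other cytidines in the same stretches, and 12.1% of them, against 10.3%, were the middle base of CCG, read on the transcript strand. Only 1 lysosomal position lay in such a window and could be shown in sequence, in the 5'UTR of CD63. It is printed with the listed C in capitals, at chr12:55728978-55729007 on the minus strand, and its C lies between G and G.

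CD63: agagccccggagccgCggcgggagaggaac

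That position was listed after TGF-β1 at 1.32% and was not listed in control.

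Some markers of the labelled cell type were present. Of 16 stellate and myofibroblast markers 9 had a listed position after TGF-β1, against 5 in control. Over all listed genes 28.3% were in the TGF-β1 table only. COL1A2, PDGFRA, DES, LRAT, RGS5, LUM and DCN, of the same stellate list, had no position in either table. None of 15 macrophage, 10 hepatocyte and 8 endothelial markers had one in either table. Of 5 cholangiocyte markers SOX9 had 0 positions after TGF-β1 and 1 in control. CD68, one of the lysosomal genes, is also used as a macrophage marker, and the other macrophage markers checked, among them PTPRC, CD14 and CSF1R, had 0 positions. Being absent from the tables does not show that a transcript is absent. Transcript levels are not given, so a position can be listed because more reads covered it. The RNA came from bulk cultures, in which more RNA per cell and more cells with a transcript cannot be told apart.

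Lysosomal transcripts had 63 listed positions in 26 genes after TGF-β1 and 43 in 24 genes in control, a ratio of 1.47 that lay beside 1.45 for all positions. The table of TGF-β1 had more positions in 19 of the 36 genes (background percent over all 6112 listed genes: 51.2), fewer in 14 (background 35.3) and equal numbers in 3. Genes with more positions were therefore 52.8% of the lysosomal genes, near the share of all genes. The lists shared 14 genes, 12 genes (33.3%) were in the TGF-β1 table only and 10 (27.8%) in the control table only, beside 28.3% and 27.3% of all listed genes. The count of genes with more positions was 7 and that with fewer 4 when only members with 3 or more positions over both tables were counted. The same share over all genes was not computed, so these counts have no background. When the longer table was reduced to as many positions as control by lowest p, the lysosomal genes had 41 positions after TGF-β1 and 43 in control.

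**Figure D1:**
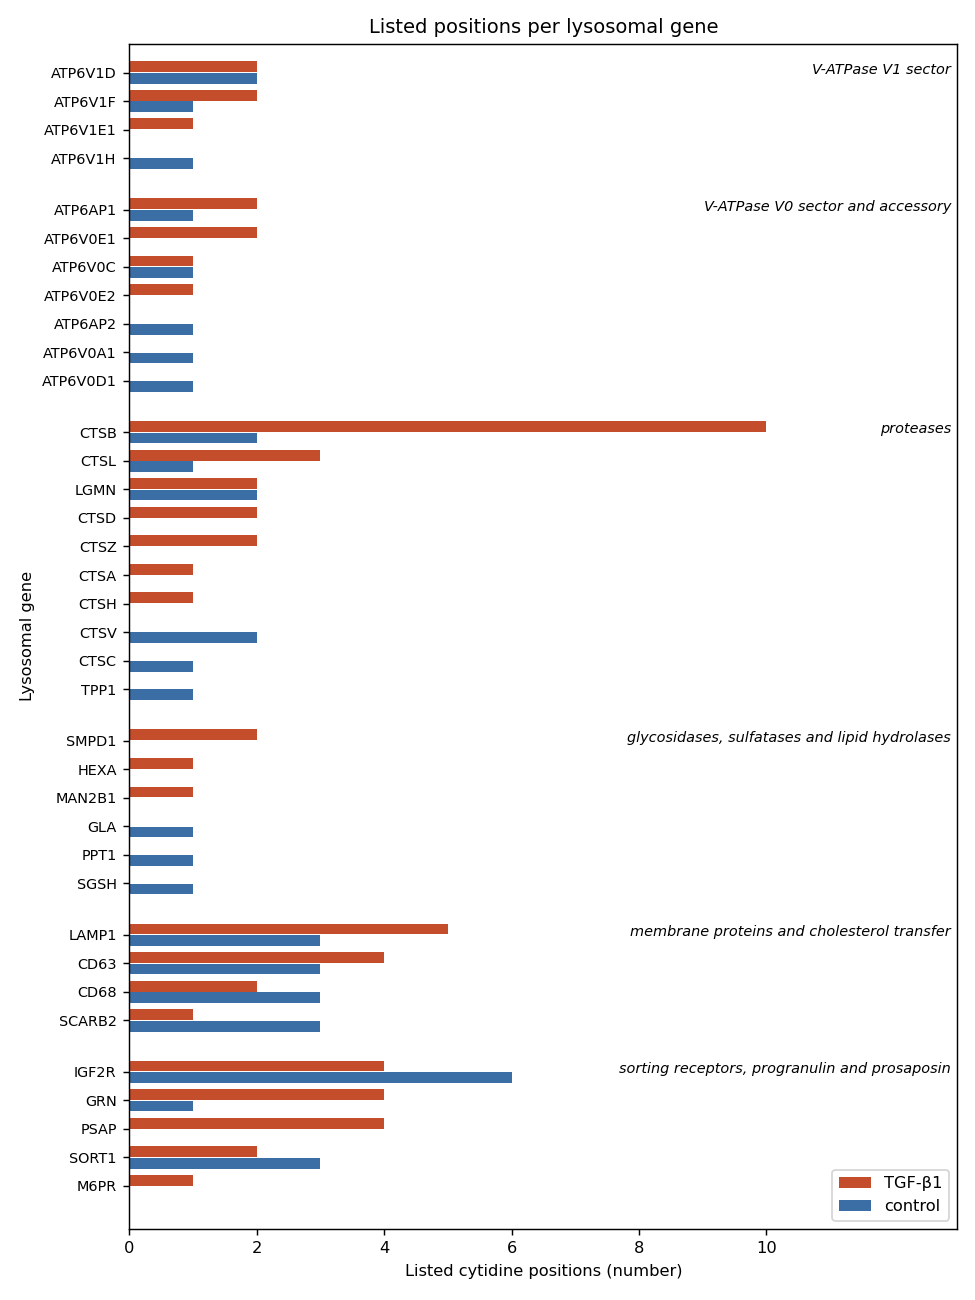
The bars give the number of listed cytidine positions (x axis) for each of the 36 lysosomal genes (y axis), after TGF-β1 in red and in control in blue, grouped by role. CTSB has the longest bar, with 10 positions after TGF-β1 and 2 in control, while IGF2R has 4 and 6.

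Where a lysosomal cytidine stood in both tables, its value after TGF-β1 was always above that in control. There were 13 such positions in 11 genes, and 13 of 13 were higher (95% Wilson interval 77.2 to 100%), against a background of 78.4% of all 1985 shared positions, which that interval holds. The median of these 13 values was 8.83% after TGF-β1 and 4.37% in control. Over all shared positions the medians were 5.77% and 3.78%. Position by position, the median of TGF-β1 minus control was 4.31 percentage points (range 1.59 to 20.3), beside 1.73 points over all shared positions. The interval of that median, 2.10 to 14.2 points, lay above 1.73. The median log2 ratio was 0.96, beside 0.58, and its interval of 0.50 to 1.66 holds 0.58. Both intervals treat the positions as independent and hold no spread between replicates. An upward difference of at least 5 points, the threshold used here, was present at 5 of 13 positions (38.5%, 17.7 to 64.5%), with a background of 20.9%. A downward one of that size was present at 0 of 13, with a background of 1.21%. The LGMN position with 4.74 points lay just under the threshold and that of ATP6V1F with 6.04 just over it. The authors' p-value was lower after TGF-β1 than in control at 10 of the 13 positions, and its part in the higher values was not tested. Positions of 1 gene share their transcripts; with 1 value per gene the median was 4.74 points, and 11 of 11 genes were higher.

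**Figure D2:**
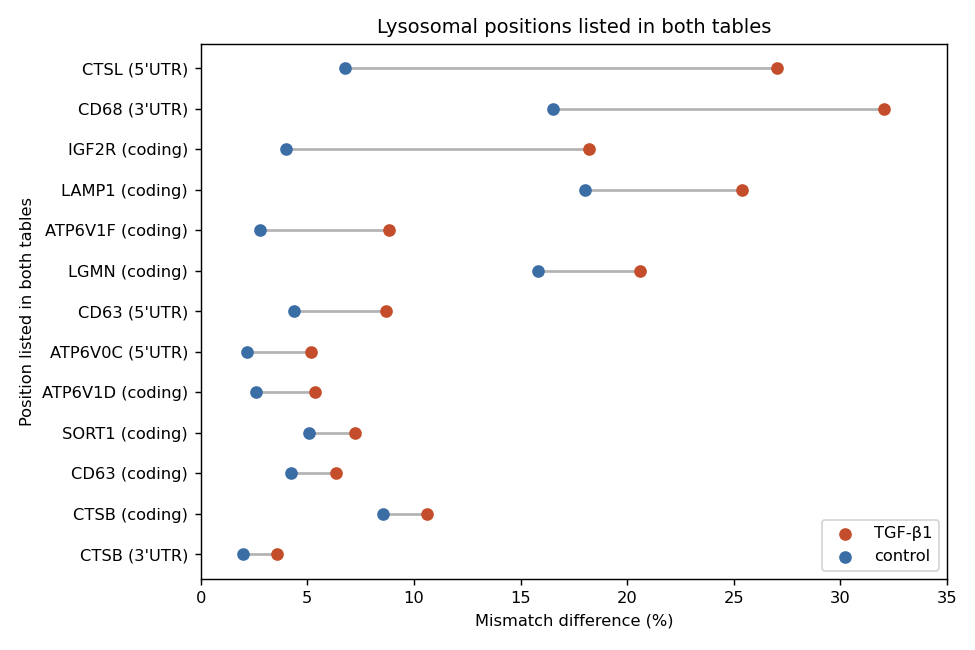
Each line joins the mismatch difference (x axis, %) after TGF-β1 (red) and in control (blue) of 1 cytidine listed in both tables, named on the y axis by its gene and location. All 13 red points lie to the right of their blue points, with the widest gap at CTSL, at 27.0% after TGF-β1 and 6.78% in control.

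The cysteine protease cathepsin L and the glycoprotein CD68 had the widest gaps. In CTSL (ENSG00000135047), whose product is a broad endopeptidase, the 5'UTR cytidine at chromosome 9 position 87726243 on the plus strand had 27.0% after TGF-β1 and 6.78% in control, a difference of 20.3 points. The authors' p-value there was 1.14e-169 after TGF-β1 and 0.0329 in control. This base lay in the 5'UTR of 19 annotated transcripts. The 3'UTR cytidine of CD68 (ENSG00000129226) at chromosome 17 position 7581701 on the plus strand had 32.0% after TGF-β1 and 16.5% in control. That was the highest value of any lysosomal position in the TGF-β1 table.

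The receptor IGF2R and the membrane protein LAMP1 followed. IGF2R (ENSG00000197081), the large receptor for mannose 6-phosphate and insulin-like growth factor 2, had 18.2% after TGF-β1 and 4.004% in control at its coding cytidine at chromosome 6 position 160104827 on the plus strand. LAMP1 (ENSG00000185896), a heavily glycosylated protein of the lysosomal membrane, had 25.4% and 18.0% in that order at chromosome 13 position 113320385 on the plus strand, also in coding sequence. ATP6V1F, a subunit of the V1 sector, had 8.83% after TGF-β1 and 2.79% in control at chromosome 7 position 128862928. These 3 positions had log2 ratios of 2.18, 0.50 and 1.66, so the order by points and the order by ratio differ.

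The other shared positions differed by less than 5 points. LGMN, the asparaginyl endopeptidase legumain, had 20.6% after TGF-β1 and 15.8% in control at chromosome 14 position 92716153. CD63, a tetraspanin of lysosomes and exosomes, had 8.68% and 4.37% at a 5'UTR cytidine at chromosome 12 position 55727316, and 6.33% and 4.23% at a coding one at position 55726238, with TGF-β1 named first in both. ATP6V0C, the proteolipid that forms the proton-carrying ring, had 5.15% after TGF-β1 and 2.16% in control in its 5'UTR, and ATP6V1D, in the stalk of the pump, had 5.38% and 2.57%. SORT1, the sorting receptor sortilin, had 7.24% after TGF-β1 and 5.06% in control. CTSB had 10.6% after TGF-β1 and 8.57% in control in coding sequence, and 3.57% and 1.98% in its 3'UTR. Of the 13 shared positions 8 were in coding sequence, 3 in 5'UTRs and 2 in 3'UTRs.

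Among the proteases 1 gene held more positions of the TGF-β1 table than any other. Cathepsins, legumain and the tripeptidyl peptidase TPP1 had 21 positions after TGF-β1 and 9 in control (ratio 2.33, beside 1.45 for all positions), and 6 of 10 genes had more (background 51.2%), 3 fewer and 1 an equal number. CTSB (ENSG00000164733), cathepsin B, accounted for 10 of the 21 and 2 of the 9, and without it the ratio was 1.57 (11 and 7 positions). The 7 other cathepsins had 9 positions after TGF-β1 and 4 in control, with 5 having more and 2 fewer. Over all 30 entries of these proteases the median mismatch difference was 4.30% after TGF-β1 and 6.78% in control, so the longer list did not hold a higher median. Most of these entries were different cytidines. At the 4 positions in both tables the median of TGF-β1 minus control was 3.39 points.

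Cathepsin B, a cysteine protease that can also act outside the cell, was the lysosomal gene with most positions. Its 10 positions spanned 8631 bases of chromosome 8 on the minus strand, from 11844706 to 11853336, with 7 in coding sequence and 3 in the 3'UTR. All 10 were listed after TGF-β1, at 1.74 to 12.7%, and 8 of these were absent from the control table. Absence was usual, as only 16.9% of all positions in the TGF-β1 table were also in control. The highest of them, 12.7%, was at position 11849139. Within 967 bases lay 5 of the positions. CTSL had 2 coding positions after TGF-β1, at 3.84% and 5.74%, that were not in the control table, so its count was 3 against 1.

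Most other cathepsins were in 1 table only, with 1 or 2 positions each. Among all listed genes 28.3% were in the TGF-β1 table only and 27.3% in the control table only. CTSD, the main aspartic protease of the lysosome, had 2.74% and 3.45% after TGF-β1 at 2 coding positions that are also annotated to a second gene identifier, ENSG00000250644. CTSZ, a carboxypeptidase, had 1.64% and 1.74%, CTSH, an aminopeptidase, had 10.1%, and CTSA, the protective protein of the galactosidase and neuraminidase complex, had 15.7% in its 3'UTR, all after TGF-β1. In the control table only, CTSV, a close paralog of CTSL, had 3.65% and 3.70%, and CTSC, which activates granule serine proteases, had 4.96%. How the authors placed reads that match both CTSL and CTSV is not given in the sources used here. LGMN, beside its shared position, had 8.47% at a 3'UTR base after TGF-β1 and 14.5% at a coding base in control. TPP1, which removes tripeptides from peptide ends, had 23.4% at chromosome 11 position 6615252 in control, the highest control value of the lysosomal genes, and no listed position after TGF-β1.

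Glycosidases, sulfatases and lipid hydrolases carried few positions, none of them in both tables. Over all positions 16.9% of the TGF-β1 table and 24.5% of the control table recurred, so few shared ones could occur here. There were 4 positions after TGF-β1 and 3 in control, in 6 of 14 genes. SMPD1, acid sphingomyelinase, had 8.17% and 21.9% after TGF-β1 at 5'UTR bases 9 bases apart, at chromosome 11 positions 6390552 and 6390561. HEXA, the alpha subunit of beta-hexosaminidase, had 6.93% and MAN2B1, lysosomal alpha-mannosidase, had 6.004%, both after TGF-β1. In control, GLA, alpha-galactosidase A, had 4.84%, PPT1, a palmitoyl-protein thioesterase, had 5.36% and SGSH, heparan N-sulfatase, had 3.997%. Each of these 6 genes was in 1 table only. Of all listed genes 28.3% were in the TGF-β1 table only and 27.3% in the control table only. ASAH1, GAA, GLB1, GUSB, IDS, IDUA, LIPA and NAGLU had no position in either table.

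Membrane proteins had equal numbers of positions in both tables, 12 after TGF-β1 and 12 in control, of which 4 were shared. The ratio over all positions was 1.45. LAMP1 had 5 positions after TGF-β1 and 3 in control. Beside its shared position it had 2.14%, 4.68%, 9.07% and 10.05% after TGF-β1, and 1.93% and 3.76% in control. All its positions were in coding sequence, and 4 of the 7 lay within 795 bases. CD63 (ENSG00000135404) had 4 positions after TGF-β1 and 3 in control, and 4 of its 5 positions formed close pairs. The coding base 55726235, listed only in control at 3.18%, lay 3 bases from the shared one. The 5'UTR base 55727317, listed only after TGF-β1 at 1.996%, lay next to the other shared one, and both of these 5'UTR bases belong to 2 annotated transcripts.

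CD68 and SCARB2 had fewer positions after TGF-β1. CD68, a mucin-like protein of late endosomes, had 3.19% at a coding base after TGF-β1, against 2.12% and 6.29% at other coding bases in control, beside its shared 3'UTR position. SCARB2, the receptor that carries glucocerebrosidase to lysosomes, had 8.22% in its 3'UTR after TGF-β1, against 2.01%, 6.70% and 7.61% at 3 coding bases in control, with none shared. LAMP2, the partner of LAMP1, and NPC1 and NPC2, which pass cholesterol out of the lysosome, were in neither table.

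Sorting receptors, progranulin and prosaposin had 15 positions after TGF-β1 and 10 in control, and their median mismatch difference was 8.64% and 3.73% in that order. IGF2R had 4 positions after TGF-β1 and 6 in control, and all 4 values after TGF-β1, 8.64%, 10.2%, 14.3% and 18.2%, were above all 6 in control, which ran from 1.30 to 4.09%. Of its 9 positions 6 lay within 546 bases, from 160104744 to 160105289, and 3 of these lay within 6 bases. The base at 10.2%, position 160102552, is annotated as 5'UTR of a single short transcript that starts inside the gene. Only 1 of the 9 positions was in both tables, so most of these values come from different cytidines. IGF2R had fewer listed positions after TGF-β1, and none of their values was below those in control.

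M6PR, the small mannose 6-phosphate receptor, had 28.4% after TGF-β1 at chromosome 12 position 8943450 in coding sequence, and no position in control. This was the highest lysosomal value listed in 1 table only. SORT1 had a coding base at 6.66% after TGF-β1, against 3'UTR bases at 1.99% and 7.23% in control, beside its shared position. GRN, progranulin, a secreted growth factor that lysosomes cut into granulins, had 2.73%, 2.81%, 5.23% and 12.7% after TGF-β1, against 2.41% in control, at 5 different coding bases. PSAP, prosaposin, the precursor of the saposins that help sphingolipid hydrolases, had 1.56%, 4.09%, 10.01% and 15.8% after TGF-β1, and was not listed in control.

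The V-ATPase was spread thinly over both tables. Of 24 genes of the pump and its accessory proteins 11 were listed, with 11 positions after TGF-β1 and 9 in control. More positions after TGF-β1 were held by 5 genes (background 51.2%), fewer by 4 (background 35.3%) and equal numbers by 2. In the V1 sector ATP6V1D had a second coding base at 5.60% after TGF-β1 and another at 2.26% in control, and ATP6V1F had a base at 3.46% after TGF-β1 that lay 9 bases from its shared one. ATP6V1E1, a stalk subunit, had 16.1% in coding sequence after TGF-β1. ATP6V1H, the regulatory subunit H, had 7.17% in control. All positions of the V1 sector were in coding sequence. The catalytic subunit gene ATP6V1A and the B subunit genes were in neither table.

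Of the listed V0 genes only ATP6V0C, described above, was in both tables. The others had 1 or 2 positions each, and most positions of all genes did not recur either (16.9% of the TGF-β1 table and 24.5% of the control table did). ATP6V0E1 and ATP6V0E2, which encode the small subunit e, were listed after TGF-β1 only, with 21.8% in the 5'UTR and 3.13% in the 3'UTR of the first and 10.3% in the 3'UTR of the second. ATP6V0A1, a proton-path subunit, at 4.94% and ATP6V0D1, which joins V0 to V1, at 14.8% were listed in control only, both in coding sequence. Among the accessory proteins ATP6AP1 had 7.54% and 9.70% after TGF-β1, against 16.4% at another base in control, and ATP6AP2, the (pro)renin receptor, had 9.67% in a 5'UTR in control. RefSeq lists pseudogenes of ATP6V0C, ATP6V0E1, ATP6V1E1 and ATP6V1F, to which reads of these genes could also match, and no such pseudogene was in the tables.

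**Figure D3:**
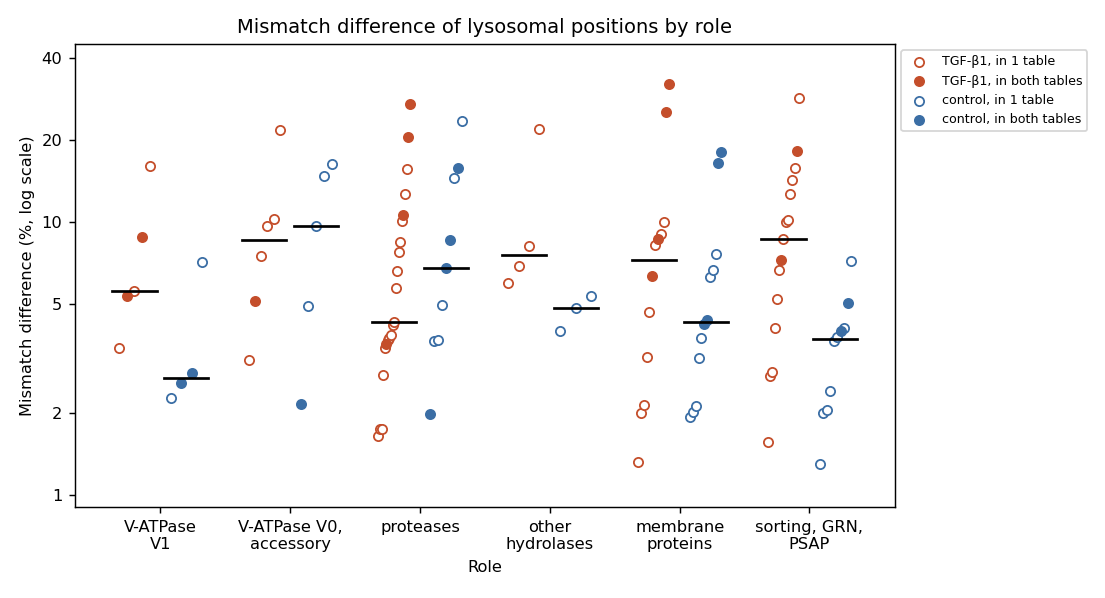
Each point is the mismatch difference (y axis, %, log scale) of 1 lysosomal position after TGF-β1 (red, left) or in control (blue, right), by role (x axis); filled points are listed in both tables, open points in 1, and black lines are medians. The median is higher after TGF-β1 in 4 roles, and in the V0 and accessory genes (8.62% and 9.67%) and the proteases (4.30% and 6.78%) it is lower. These medians cover mostly different cytidines. At positions in both tables TGF-β1 minus control is 2.99 points in the V0 and accessory genes (1 position). In the proteases its median is 3.39 points (4 positions).

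Levels of all lysosomal positions had a median of 6.93% after TGF-β1 and 4.23% in control, beside 4.68% and 4.05% over all positions. Values of 10% or more stood at 20 of 63 positions after TGF-β1 (31.7%, 95% Wilson interval 21.6 to 44.0%; background 18.5%) and at 7 of 43 in control (16.3%, 8.12 to 29.97%; background 12.4%). Among the positions in 1 table only, 14 of 50 after TGF-β1 (28%; background 17.3%) and 4 of 30 in control (13.3%; background 13.5%) were at that level. After M6PR and SMPD1 the highest of these after TGF-β1 were in ATP6V0E1, ATP6V1E1 and PSAP, and those in control were in TPP1, ATP6AP1, ATP6V0D1, LGMN and ATP6AP2. The authors' p-value was exactly 0 at 8 of 63 positions after TGF-β1 and 4 of 43 in control, beside 11.02% and 8.04% of all positions. None of these 12 positions was shared, and of all 1929 positions with such a p-value 3.94% were.

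Most positions did not recur. Of the 63 positions after TGF-β1 13 were also in the control table (20.6%, 12.5 to 32.2%; background 16.9%), and of the 43 in control the same 13 recurred after TGF-β1 (30.2%, 18.6 to 45.1%; background 24.5%). Both intervals hold the background. Coding sequence held 41 of 63 positions after TGF-β1 (65.1%) and 35 of 43 in control (81.4%), beside 76.3% and 74.7% over all positions. In 3'UTRs there were 13 after TGF-β1 (20.6%, 12.5 to 32.2%) and 4 in control (9.30%, 3.68 to 21.6%), beside 12.0% and 12.6% over all. CTSB held 3 of these 13 and 1 of these 4. Within 10 bases of another listed position lay 11 of the 93 lysosomal positions (11.8%), against 16.4% of all 17862. No lysosomal position was annotated to a noncoding exon or an intron.

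Other lysosome-related genes, in 5 lists that leave out the genes above, were set beside them. Together 90 of 188 symbols were listed, 51 with more positions after TGF-β1 (background 51.2%), 28 with fewer (background 35.3%) and 11 with equal numbers, and they had 153 positions after TGF-β1 and 110 in control (ratio 1.39). Of 22 cytidines in both tables, 19 had the higher value after TGF-β1 (background 78.4%), with a median difference of 2.30 points. Further hydrolases and their helpers had 9 and 7 positions in that order, with the sialidase NEU1 at 2 and 1 and MANBAL at 1 and 1. Further membrane proteins and transporters had 17 and 10, with the cotransporter SLC12A4 at 4 and 2, the sterol carrier STARD3 at 4 and 1, and MFSD12 and PIP4P1 both at 3 and 1. Genes of targeting and fusion had 60 and 43, with AP3D1, the delta subunit of the adaptor AP-3, at 11 and 9, AP1M1, a subunit of AP-1, at 8 and 3, and VPS18, of the tethering complexes, at 5 and 2.

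Genes of autophagy had 43 positions after TGF-β1 and 27 in control, with 16 of 25 listed genes having more (background 51.2%), and all 9 shared positions were higher after TGF-β1 (background 78.4%). SQSTM1, the cargo receptor p62, had 9 positions after TGF-β1 and 3 in control, BECN1, of the lipid kinase complex that starts autophagosomes, 5 and 2, and OPTN, another cargo receptor, 2 and 4. The genes of the mTORC1 platform and the TFEB family had nearly equal numbers, 24 after TGF-β1 and 23 in control. Of the 19 listed genes 8 had more (background 51.2%) and 9 fewer (background 35.3%). In that list SEC13 had 6 and 2, YWHAB, a 14-3-3 protein, 4 and 2, LAMTOR1, which anchors the platform on the lysosome, 3 and 2, and the mTORC1 subunit RPTOR 3 and 2. Its 2 shared positions were both lower after TGF-β1, with a median difference of -1.92 points. Over all shared positions 78.4% were higher, and 2 positions are too few to set against that share. TFEB itself and MCOLN1, the lysosomal calcium channel, had no position in either table. TFE3, a relative of TFEB that was singled out after its values were seen, had 0 after TGF-β1 and 2 in control. Of all listed genes 27.3% were in the control table only.

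**Figure D4:**
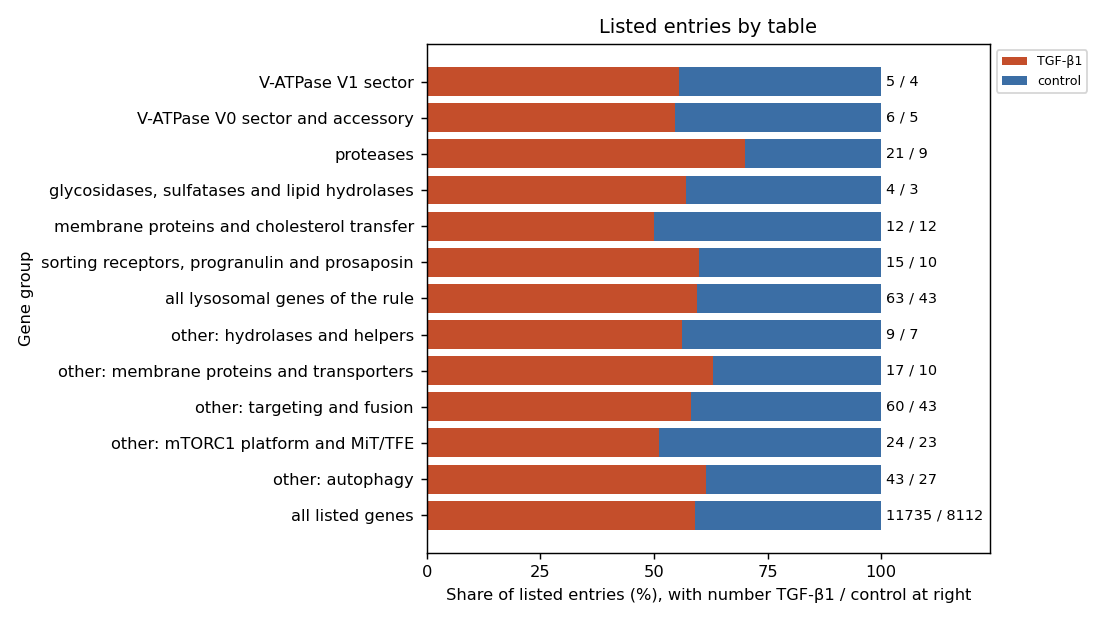
The bars divide the listed entries of each gene group (y axis) into those of the TGF-β1 table (red) and the control table (blue), as a share in percent (x axis), with both numbers at the right. The proteases stand at 21 and 9, while the lysosomal genes as a whole, at 63 and 43, lie beside all listed genes, at 11735 and 8112.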

How the data were processed

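The tools named in the submitters' processing notes are STAR 2.7.6a, fastp 0.23.1 and featureCounts, and the build is hg38; their roles are not stated. How positions were called and filtered, and how both libraries of a group became 1 table, is not given in the sources used here. Each table deposited by the authors has a line per position and transcript. Per the file headers its diff column is a difference, and its values are a fraction from 0.01 to 1; what is subtracted is not stated. The deposited p-value is below 0.05 throughout, with no statement on adjustment.

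Lines were merged to 1 per position and gene with pandas 2.3.3. A position in both tables had to match in chromosome, coordinate and strand. All 36 listed genes matched a RefSeq symbol. The 2 CTSD positions were counted for that gene too. Intervals of shares are 95% Wilson intervals (scipy 1.17.1). Those of medians are taken from the ordered values by the binomial distribution, at 95% or more. No test was made, as no value per library was given. Merging, sharing and medians were tested on simulated data.

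The members and lists were chosen with earlier results of these data known. The other lists were kept as written, although MANBAL and SLC12A4 in them are not established lysosomal proteins. Named genes are all listed members and up to 3 of each other list by number of positions, with ties at the third place named where they had more than 1 position. TFE3 was added outside this rule. Calls use 5 percentage points. Alternatives were a p-value below 0.001, a mismatch difference of at least 5%, a shortened TGF-β1 list, 1 gene per position, no p-values of 0, genes left out and coding sequence only.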

Additional observations from a re-analysis of the deposited data

How the results depend on the processing

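At shared positions the medians ran from 4.31 to 6.06 points over the alternatives. Their direction could not change, because all 13 positions were higher as deposited. The alternatives only removed some of these 13 or put them on another scale, so the kept direction is no check of it. Of 58 recomputed values 48 stayed within their limits, which were wide. For a share the limits were its Wilson interval, from few entries in most roles. For genes only the number with more positions was compared, so staying within limits is no check of the balance. With the shortened TGF-β1 list 15 lysosomal genes had more positions and 15 fewer, against 19 and 14 as deposited. Over all genes 2201 then had more and 2670 fewer. Reduced to as many positions as control by lowest p, the TGF-β1 table's share of the entries of lysosomal genes was 48.8%, against 59.4% as deposited. That of the other hydrolases was 25% (57.1% as deposited), from 1 entry after TGF-β1 and 3 in control. That of the sorting group was 37.5% (60.0%), from 6 and 10 entries in that order. Over all genes this setting gives 50% by construction. Without p-values of 0 the share in the V0 and accessory genes was 37.5% (54.5%), from 3 and 5 entries. With p below 0.001, 4 positions were shared and the V1 share was 83.3% (55.6%), from 5 and 1 entries. At 5% or more, 6 were shared, the lysosomal share was 70.7% and that of the sorting group 84.6%, from 11 and 2 entries. Over all genes the share was 63.8% with p below 0.001 and 63.5% at 5% or more, against 59.1% as deposited. Counting genes with 3 or more positions, chosen after seeing the data, 7 had more; fewer genes were counted there. The cause of the other changes was not tested. Left out in turn, CTSB, IGF2R and LAMP1 gave shares of 56.4%, 61.5% and 59.2%. No paired analysis was possible because each group has 1 table with no value per replicate, so no replicate could be left out either. Depth is unknown and limits every statement about a position missing from a table.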
